A study of Mus musculus with 4 samples.

Results

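The 7 inhibitors of cyclin-dependent kinases (Cdkn1a, Cdkn1b, Cdkn1c, Cdkn2a, Cdkn2b, Cdkn2c and Cdkn2d) and the 3 D-type cyclins (Ccnd1, Ccnd2 and Ccnd3) were followed in sorted intestinal epithelial cells of mice. These 10 genes were found by matching the Ensembl IDs of the count tables to mouse symbols, and all 10 were among the 38124 rows. RNA sequencing had been done on 4 libraries, 1 for each combination of diet and sorted fraction, so no group had a replicate. The groups were GFP-high cells on a high-fat diet (HFD), GFP-low cells on HFD, GFP-high cells on the control diet and GFP-low cells on the control diet. All mice were C57BL/6 males 71 weeks old, and each library was a pool of cells from 2 to 5 of them. The labels call GFP-high cells intestinal stem cells and GFP-low cells progenitors, and title the control libraries WT, with a diet they label normal. The sources used here do not give the gene that drives GFP, the composition of the diets, or whether the GFP-high and GFP-low pools of a diet shared mice.

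D cyclins bind and activate the kinases Cdk4 and Cdk6, which phosphorylate the retinoblastoma protein and so release E2F transcription factors at the passage from G1 into S phase. The INK4 inhibitors (encoded by Cdkn2a to Cdkn2d) bind Cdk4 and Cdk6 and block their pairing with D cyclins, whereas the CIP/KIP inhibitors (encoded by Cdkn1a to Cdkn1c) bind cyclin-Cdk complexes and restrain mainly Cdk2. In the intestinal crypt, cycling stem and progenitor cells leave the cell cycle as they differentiate toward the villus, and p21, the product of Cdkn1a, is a classic mark of that exit.

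Of the inhibitors, 2 carried the main contrast, Cdkn2b and Cdkn1a, both far lower in GFP-high than in GFP-low cells, while Cdkn1b, the CIP/KIP member with the highest level in GFP-high cells, was higher there. The 250 bases upstream of the RefSeq start of these 3 genes are shown to set the 2 genes that were low in GFP-high cells beside the one that was high (RefSeq, GRCm38.p6). Capitals mark the GC box (GGGCGG on either strand), a binding site of Sp1-type factors, and the SMAD box (CAGAC on either strand), the core element bound by the SMAD proteins of the TGF-beta pathway. Cdkn2b lies at chr4:89311033-89311282 on the minus strand, Cdkn1a (its second listed start) at chr17:29093519-29093768 on the plus strand, and Cdkn1b at chr6:134920151-134920400 on the plus strand.
Cdkn2b: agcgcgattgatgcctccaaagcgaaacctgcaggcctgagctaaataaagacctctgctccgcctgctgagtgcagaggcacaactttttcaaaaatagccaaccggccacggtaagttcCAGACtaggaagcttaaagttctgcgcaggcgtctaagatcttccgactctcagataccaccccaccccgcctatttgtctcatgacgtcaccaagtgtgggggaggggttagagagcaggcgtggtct
Cdkn1a: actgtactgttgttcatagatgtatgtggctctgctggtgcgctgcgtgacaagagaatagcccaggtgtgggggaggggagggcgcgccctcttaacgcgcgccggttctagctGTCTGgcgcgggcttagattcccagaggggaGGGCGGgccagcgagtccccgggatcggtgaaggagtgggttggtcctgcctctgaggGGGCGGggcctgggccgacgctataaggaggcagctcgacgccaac
Cdkn1b: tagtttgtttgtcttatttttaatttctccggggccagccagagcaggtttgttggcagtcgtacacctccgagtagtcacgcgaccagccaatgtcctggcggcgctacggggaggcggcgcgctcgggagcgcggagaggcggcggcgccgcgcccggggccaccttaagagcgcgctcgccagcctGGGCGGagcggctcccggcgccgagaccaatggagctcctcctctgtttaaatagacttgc

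Cdkn2b had 1 SMAD box and no GC box in this window, Cdkn1a had 1 SMAD box and 2 GC boxes, and Cdkn1b had 1 GC box and no SMAD box. The other listed start of Cdkn1a, which is not shown, had 1 SMAD box and no GC box. Among 32851 upstream windows of the same length, 32.7% held a GC box and 42.2% a SMAD box, so both motifs are frequent. The GC content was 53.6% for Cdkn2b, 64.8% for Cdkn1a and 64.4% for Cdkn1b, with a median of 52.4% over all windows. The other motifs searched on both strands, a TATA box (TATAAA), an E-box (CACGTG) and an E2F core (TTTGGCG or TTTCGCG), were absent from these 3 windows and present in 12.4%, 6.02% and 1.93% of all windows. Of the 10 genes, 7 had upstream sequence in the RefSeq table, and Cdkn1c, Ccnd1 and Ccnd2 were not among them. Genes that did not pass the fraction test held SMAD boxes too. Cdkn2d had 2, Ccnd3 had 2 at its first listed start, and Cdkn2c had 1 at its second. The SMAD box was thus not confined to genes that were low in GFP-high cells. These matches describe letters in the sequence only.

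The libraries held 4677389 to 6207080 counts. Levels below are TMM-scaled CPM, that is, counts scaled to a common library size after a correction for composition. A gene with 0 counts can be as high as 0.449 to 0.680 CPM, from an upper limit of 3 counts, which covers counting error only. The test took genes that reached 20 counts in 2 or more libraries, 10694 in all, and 8 of the 10 genes passed this filter, Cdkn1c and Cdkn2a not. The labelled fractions were checked against markers. By edgeR, all 14 stem cell markers were called higher in GFP-high cells, and 13 of 14 enterocyte and 9 of 9 goblet markers were called lower. The remaining enterocyte marker, Apoa1, was 9.89-fold lower but not called (edgeR adjusted p = 0.0530).

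**Figure D1:**
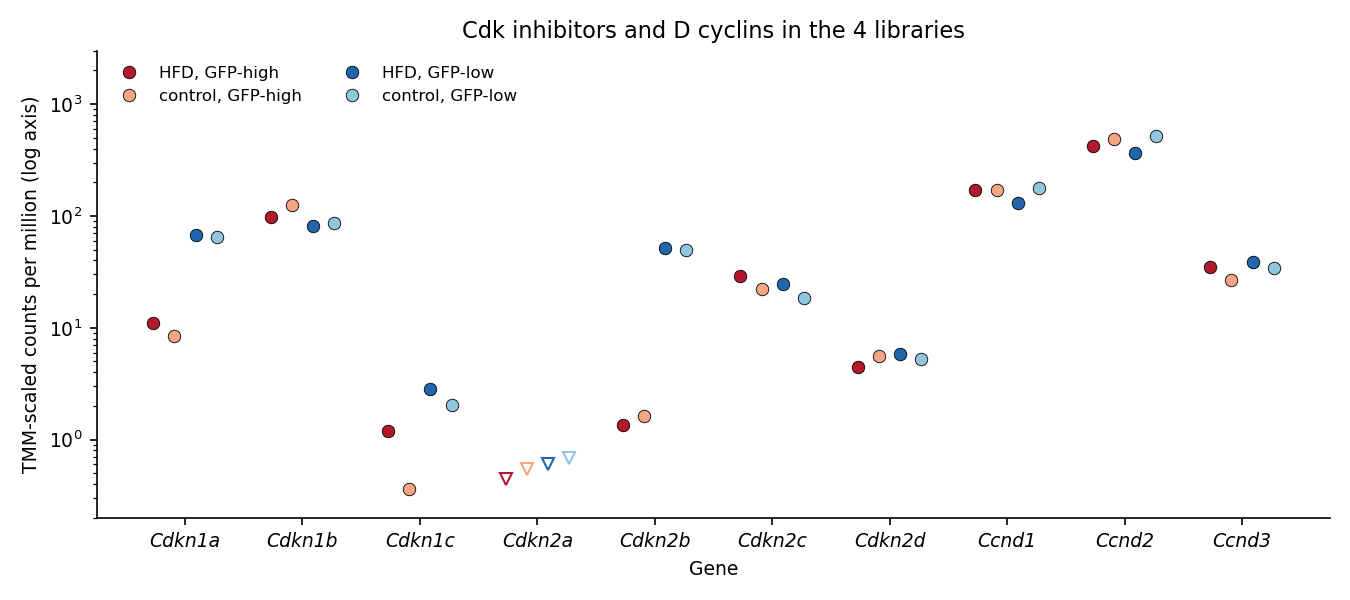
TMM-scaled CPM (log axis) of the 10 genes, 1 point per library; open triangles for Cdkn2a stand for the upper limit of a count of 0. Cdkn1a and Cdkn2b lie far lower in both GFP-high libraries than in both GFP-low libraries, whereas the 4 points of each D cyclin lie close together.

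Cdkn2b, which encodes p15 and is the INK4 gene best known as a TGF-beta target, was scarcely detected in GFP-high cells. It had 1.35 CPM (9 counts) in HFD GFP-high and 1.63 CPM (9 counts) in control GFP-high cells, against 52.0 CPM (257 counts) in HFD GFP-low and 49.6 CPM (219 counts) in control GFP-low cells. Both GFP-high libraries were far below both GFP-low libraries, and the diets were close within each fraction. The level was 33.9-fold lower in GFP-high cells (log2 -5.09 ± 0.23 SE, edgeR quasi-likelihood test, adjusted p = 1.12e-10). DESeq2 gave a wider SE on the same counts (log2 -5.10 ± 0.455 SE), so the edgeR SE may be too small. With 1 library each, the ratio of GFP-high to GFP-low was 0.0259 under HFD (95% counting interval 0.0117 to 0.050) and 0.0328 under control (0.0148 to 0.0635). The gene spans chr4:89306299-89311039 (GRCm38, minus strand) and has 2 exons in the annotation.

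Cdkn1a, which encodes p21, had 11.1 CPM in HFD GFP-high and 8.51 CPM in control GFP-high cells, against 67.6 CPM in HFD GFP-low and 64.3 CPM in control GFP-low cells. The GFP-high libraries were again both below the GFP-low libraries. The difference was 6.69-fold (log2 -2.74 ± 0.16 SE, edgeR adjusted p = 1.39e-09). The gene lies at chr17:29090976-29100727 on the plus strand.

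Cdkn1b, which encodes p27, a brake on Cdk2 that is controlled largely through protein breakdown, went the other way. It had 97.1 CPM in HFD GFP-high and 125 CPM in control GFP-high cells, against 81.3 CPM in HFD GFP-low and 86.1 CPM in control GFP-low cells. The groups did not overlap, but the gap was small, 1.32-fold higher in GFP-high cells (log2 0.40 ± 0.11 SE, edgeR adjusted p = 0.00782). This call was not kept by DESeq2 (adjusted p = 0.176) or without diet in the model (edgeR adjusted p = 0.0998).

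In all, 3 of the 8 tested genes passed the fraction test, 1 higher and 2 lower in GFP-high cells, beside 47.6% of all tested genes (22.0% higher and 25.6% lower). DESeq2 called 2 of the 8. The same 3 genes did not overlap between the fractions, against 68.0% of all tested genes, so the share of the group that differed was not above the background. Cdkn1a and Cdkn2b also passed 2-fold, as 14.8% of all tested genes did. The median log2 ratio of the 8 genes was -0.04, beside -0.000677 over all tested genes.

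The other INK4 genes did not pass. Cdkn2c, which encodes p18, had 29.1 CPM in HFD GFP-high and 22.4 CPM in control GFP-high cells, against 24.5 CPM in HFD GFP-low and 18.4 CPM in control GFP-low cells (log2 0.27 ± 0.16 SE, edgeR adjusted p = 0.185). Its fractions overlapped. Cdkn2d, which encodes p19Ink4d, had 4.49 CPM in HFD GFP-high and 5.61 CPM in control GFP-high cells, against 5.87 CPM in HFD GFP-low and 5.21 CPM in control GFP-low cells, on 23 to 31 counts per library (log2 -0.15 ± 0.34 SE, edgeR adjusted p = 0.751). At this depth a moderate difference in Cdkn2d would not be detectable.

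Cdkn2a, which encodes p16 and, from another reading frame, p19Arf, and which is widely used as a marker of ageing and senescent cells, had 0 counts in all 4 libraries of these old mice. The limit that 0 counts allow was 0.449 CPM in HFD GFP-high, 0.607 CPM in HFD GFP-low, 0.543 CPM in control GFP-high and 0.680 CPM in control GFP-low cells. It is the immediate neighbour of Cdkn2b, at chr4:89274471-89294653 on the same strand, and the pair descends from a duplicated gene. The longest run shared by their transcripts is 23 bases of exon, cgggaaggcttcctggacacgct, found at chr4:89276855-89276877 in Cdkn2a and at chr4:89307184-89307206 in Cdkn2b (GRCm38, minus strand). It is the longest exact match only. Similar stretches with mismatches were not searched, so how far reads of one gene could be mistaken for the other was not tested. No 2 of the 10 genes shared a run of 30 bases.

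Cdkn1c, which encodes p57 and is an imprinted gene, was close to the limit of detection, with 8 counts (1.20 CPM) in HFD GFP-high and 2 counts (0.362 CPM) in control GFP-high cells, against 14 counts (2.83 CPM) in HFD GFP-low and 9 counts (2.04 CPM) in control GFP-low cells. Both GFP-high libraries were below both GFP-low libraries. The ratio of GFP-high to GFP-low was 0.423 under HFD (95% counting interval 0.154 to 1.08) and 0.178 under control (0.0187 to 0.858). With no filter on low counts, the edgeR fit gave log2 -1.61 for fraction (adjusted p = 0.0681) and 0.84 for diet (adjusted p = 0.762).

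**Figure D2:**
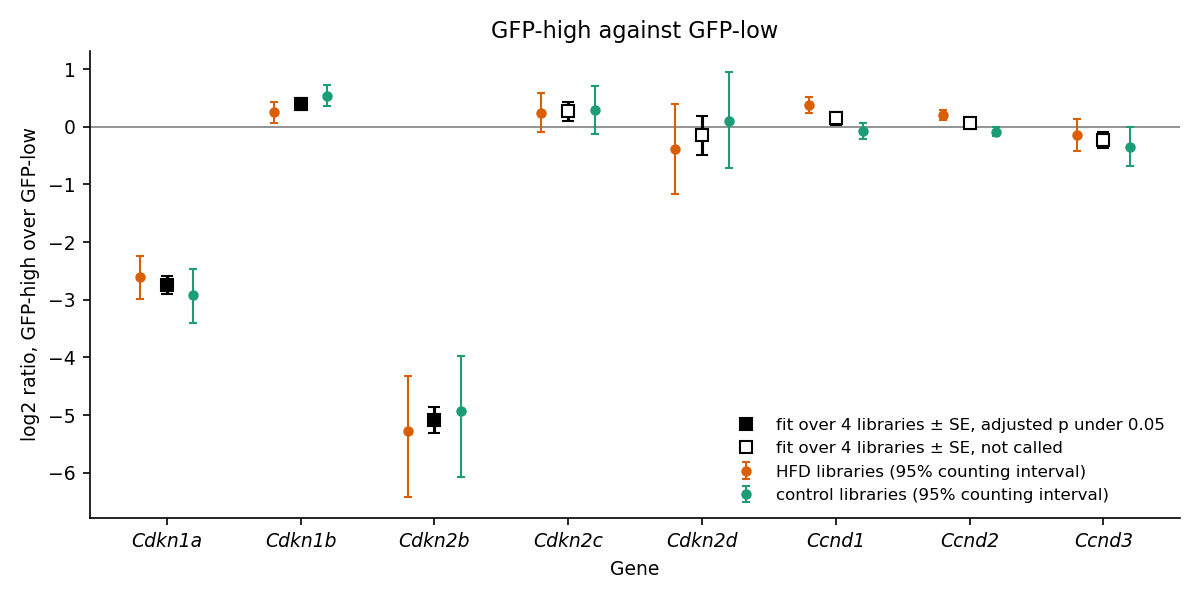
Log2 ratio, GFP-high against GFP-low, for the 8 tested genes. Squares show the edgeR fit over 4 libraries ± SE, filled where the adjusted p is under 0.05. Circles show the ratio of 1 library against 1 within each diet with its 95% counting interval. For Cdkn2b the edgeR SE of 0.232 is narrower than that of DESeq2 (0.455). Cdkn2b and Cdkn1a stand at -5.09 and -2.74, Cdkn1b at 0.40, and the other 5 fits are not called.

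Ccnd2 and Ccnd1 had the highest counts of the 10 genes, and none of the 3 D cyclins passed the fraction test. Ccnd2 had 423 CPM in HFD GFP-high and 488 CPM in control GFP-high cells, against 367 CPM in HFD GFP-low and 517 CPM in control GFP-low cells (log2 0.06 ± 0.10 SE, edgeR adjusted p = 0.664). Ccnd1, a Wnt target in many tissues, had 169.6 CPM in HFD GFP-high and 170.0 CPM in control GFP-high cells, against 131 CPM in HFD GFP-low and 178 CPM in control GFP-low cells (log2 0.15 ± 0.11 SE, edgeR adjusted p = 0.292). The fractions overlapped for both genes, since the GFP-high levels lay between the GFP-low levels of the 2 diets. Ccnd3 had 35.1 CPM in HFD GFP-high and 26.8 CPM in control GFP-high cells, against 38.6 CPM in HFD GFP-low and 34.0 CPM in control GFP-low cells (log2 -0.23 ± 0.14 SE, edgeR adjusted p = 0.192).

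Levels of different genes were compared per kilobase of merged exon. In HFD GFP-high cells the order was Ccnd2 (44.9 CPM per kb), Ccnd1 (36.0), Cdkn1b (21.3), Cdkn2c (10.8), Ccnd3 (3.99), Cdkn1a (3.12), Cdkn2d (2.86), Cdkn2b (0.970) and Cdkn1c (0.588). In HFD GFP-low cells Cdkn2b stood second at 37.4 CPM per kb, between Ccnd2 (39.0) and Ccnd1 (27.8), with Cdkn1a at 19.0 and Cdkn1b at 17.9. Cdkn2b was thus next to last of the detected genes in GFP-high cells and among the highest 3 in GFP-low cells, far above Ccnd3 (4.40 CPM per kb under HFD and 3.87 under control). With the longest transcript as the length, Ccnd2 was well above it in GFP-low cells, at 58.0 CPM per kb under HFD and 81.7 under control. In control cells Ccnd2 and Ccnd1 were the top pair of both fractions, and Cdkn2b came next after them in GFP-low cells (35.7 CPM per kb) and was next to last of the detected genes in GFP-high cells (1.17). Neighbours that changed places between the diets, Cdkn1a and Cdkn1b or Cdkn2b and Ccnd1 in GFP-low cells, and Ccnd3, Cdkn1a and Cdkn2d in GFP-high cells, cannot be ranked.

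Within the CIP/KIP family, Cdkn1a made up 12.5% of the summed level per kb in HFD GFP-high and 7.97% in control GFP-high cells, against 49.7% in HFD GFP-low and 47.6% in control GFP-low cells. With the longest transcript as the length, these shares were 19.5% and 12.9% in HFD and control GFP-high cells, against 62.7% and 60.8% in HFD and control GFP-low cells. Within the INK4 family, Cdkn2b made up 6.62% in HFD GFP-high and 8.95% in control GFP-high cells, against 74.4% in HFD GFP-low and 77.9% in control GFP-low cells. Cdkn2c was the leading INK4 gene of GFP-high cells, with 73.9% in HFD and 63.8% in control cells. The leading INK4 gene therefore differed between the fractions. Among the D cyclins, Ccnd2 made up 52.9% in HFD GFP-high, 54.8% in HFD GFP-low, 57.0% in control GFP-high and 56.8% in control GFP-low cells. Ccnd3 was the smallest part, at 4.70%, 6.18%, 3.36% and 4.01% in the same order of libraries.

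**Figure D3:**
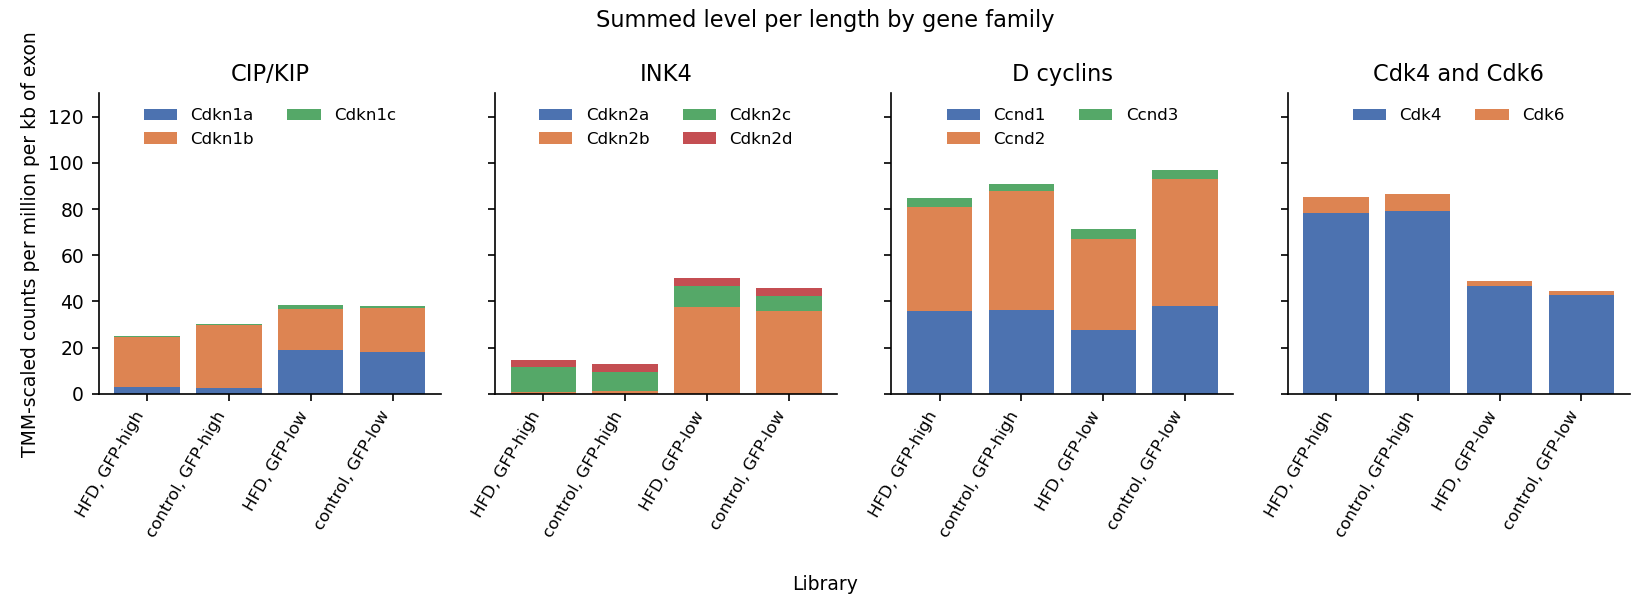
Stacked bars of TMM-scaled CPM per kb of merged exon, 1 bar per library, for the CIP/KIP inhibitors, the INK4 inhibitors, the D cyclins and their kinases Cdk4 and Cdk6. Cdkn2b makes up 6.62% and 8.95% of the INK4 bar in GFP-high libraries and 74.4% and 77.9% in GFP-low libraries.

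The summed INK4 level was 14.6 CPM per kb in HFD GFP-high and 13.1 in control GFP-high cells, against 50.3 in HFD GFP-low and 45.8 in control GFP-low cells. The gap in this sum lay in Cdkn2b. Cdkn2c had 10.8 and 8.36 CPM per kb in HFD and control GFP-high cells, against 9.12 and 6.83 in HFD and control GFP-low cells. Cdkn2d had 2.86 and 3.56, against 3.73 and 3.31, in the same order. The kinases that INK4 inhibitors bind moved opposite to the sum. Cdk4 and Cdk6 together had 85.2 CPM per kb in HFD GFP-high and 86.6 in control GFP-high cells, against 48.7 in HFD GFP-low and 44.7 in control GFP-low cells. The ratio of INK4 to these kinases was 0.172 in HFD GFP-high and 0.151 in control GFP-high cells, against 1.03 in both HFD and control GFP-low cells. With the longest transcript as the length, the ratios were 0.120 and 0.106 in GFP-high cells, against 0.675 and 0.668 in GFP-low cells. These are ratios of messenger RNA, not of protein.

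Under the rule for the most similar patterns, the named genes nearest to Cdkn2b over the 4 libraries, of 9304 candidates, were Slc9a3, the apical sodium-hydrogen exchanger of enterocytes (distance 0.27 in log2 units), Ces1f, a carboxylesterase (0.43), and Gsta1, a glutathione transferase (0.48). The nearest to Cdkn1a were Slc40a1, which encodes the iron exporter ferroportin (0.09), Efnb2, an ephrin ligand (0.16), and Edn2, an endothelin (0.28). With only 4 libraries such a distance reflects chiefly the size of the fraction and diet ratios.

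Differentiated-cell markers moved with the fractions in the same direction as Cdkn1a and Cdkn2b. The summed level of the 14 enterocyte markers was 1171 CPM in HFD GFP-high and 905 CPM in control GFP-high cells, against 7573 CPM in HFD GFP-low and 3732 CPM in control GFP-low cells. The 9 goblet markers summed to 3222 CPM in HFD GFP-high and 3633 CPM in control GFP-high cells, against 17928 CPM in HFD GFP-low and 40840 CPM in control GFP-low cells. The sums of markers of cells outside the epithelium were low and moved in the same direction, but each was mostly 1 gene in GFP-low cells, Itgam or Vim. The 12 leukocyte markers summed to 11.5 CPM in HFD GFP-high and 12.5 CPM in control GFP-high cells, against 23.1 CPM in HFD GFP-low and 34.9 CPM in control GFP-low cells. Their defining genes Ptprc, Csf1r and Cd52 had 0 counts in every library, and the 1 tested, Itgam, was 2.36-fold lower in GFP-high cells (edgeR adjusted p = 9.84e-05). The 11 stromal and endothelial markers summed to 4.19 CPM in HFD GFP-high and 2.72 CPM in control GFP-high cells, against 16.0 CPM in HFD GFP-low and 27.0 CPM in control GFP-low cells. Col1a1, Col1a2, Col3a1, Dcn, Lum and Cdh5 had 0 counts in every library, and the 1 tested, Vim, was 12.0-fold lower in GFP-high cells (edgeR adjusted p = 6.71e-07). Vim alone had 15.6 CPM in HFD GFP-low and 25.6 CPM in control GFP-low cells. The other stromal and endothelial markers had 11 counts or fewer per library. Among them Acta2 went the other way, with 1.65 and 1.09 CPM in HFD and control GFP-high cells, against 0 and 0.906 CPM in HFD and control GFP-low cells. The part of these cell types in the ratios of Cdkn1a and Cdkn2b was not tested. In these pools, fewer cells of a type and less RNA per cell cannot be told apart.

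The second comparison asked how the high-fat diet changed these genes over both fractions. None of the 8 tested genes passed (edgeR, and 0 of 8 by DESeq2), beside 6.46% of all tested genes (2.96% higher and 3.50% lower under HFD). At an unadjusted p under 0.05, edgeR had 2 of the 8, Ccnd2 and Cdkn2c, and DESeq2 had 1, Ccnd2, while 20.3% of all tested genes were past that mark by edgeR. The median log2 ratio of the 8 was -0.02, beside 0.01 over all tested genes. The HFD and control libraries did not overlap for 4 of the 8 (Cdkn2c and Ccnd3, higher under HFD, and Ccnd1 and Ccnd2, lower), against 22.6% of all tested genes.

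Ccnd2, with 423 and 367 CPM in HFD GFP-high and GFP-low cells, against 488 and 517 CPM in control GFP-high and GFP-low cells, came nearest to the threshold (1.27-fold, log2 -0.35 ± 0.10 SE, edgeR adjusted p = 0.0532). Both HFD libraries were below both control libraries. It passed with no filter on low counts (edgeR adjusted p = 0.0105) and with a minimum of 100 counts (edgeR adjusted p = 0.0454) at the same log2 ratio of -0.35. In edgeR it did not pass with DESeq2 size factors (adjusted p = 0.0942), with library totals (adjusted p = 0.0735) or without fraction in the model. The DESeq2 test gave it an adjusted p of 0.725.

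Ccnd1 had 169.6 and 131 CPM in HFD GFP-high and GFP-low cells, against 170.0 and 178 CPM in control GFP-high and GFP-low cells (log2 -0.22 ± 0.11 SE, edgeR adjusted p = 0.304). Its separation by diet lay in GFP-low cells, since the GFP-high values were all but equal. Cdkn2c had 29.1 and 24.5 CPM in HFD GFP-high and GFP-low cells, against 22.4 and 18.4 CPM in control GFP-high and GFP-low cells (log2 0.39 ± 0.16 SE, edgeR adjusted p = 0.172). Ccnd3 had 35.1 and 38.6 CPM under HFD, against 26.8 and 34.0 CPM under control, in the same order of fractions (log2 0.29 ± 0.14 SE, edgeR adjusted p = 0.275).

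Cdkn1b was 97.1 and 81.3 CPM in HFD GFP-high and GFP-low cells, against 125 and 86.1 CPM in control GFP-high and GFP-low cells, and overlapped between diets (log2 -0.23 ± 0.11 SE, edgeR adjusted p = 0.251). The genes with the largest fraction ratios had the diet values Cdkn1a 0.16 ± 0.15 and Cdkn2b 0.04 ± 0.19 (log2 ± SE, edgeR adjusted p = 0.609 and 0.935). Cdkn2d was at -0.09 ± 0.34 (edgeR adjusted p = 0.921).

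Within each fraction the diets were set side by side with 1 library each and no test. No tested gene of the 10 differed by 2-fold or more between diets, a size reached in GFP-high cells by 2.32% and in GFP-low cells by 4.22% of genes at 5 CPM or more. In GFP-low cells the ratio of HFD to control was 0.734 for Ccnd1 (95% counting interval 0.661 to 0.816) and 0.710 for Ccnd2 (0.668 to 0.756). In GFP-high cells it was 0.998 for Ccnd1 (0.914 to 1.09) and 0.867 for Ccnd2 (0.822 to 0.914). For both cyclins the ratio was further from 1 in GFP-low than in GFP-high cells.

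Ccnd3 went the other way, with ratios of 1.31 in GFP-high (95% counting interval 1.06 to 1.62) and 1.14 in GFP-low cells (0.914 to 1.42). Cdkn1b had a ratio of 0.776 in GFP-high cells (95% counting interval 0.696 to 0.865) and 0.945 in GFP-low cells (0.819 to 1.09). Cdkn2c had 1.29 in GFP-high (1.03 to 1.64) and 1.33 in GFP-low cells (0.999 to 1.79), similar in both fractions. For Cdkn1c the ratio in GFP-high cells was 3.31, on 8 counts in HFD against 2 in control, with an interval of 0.661 to 32.0.

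**Figure D4:**
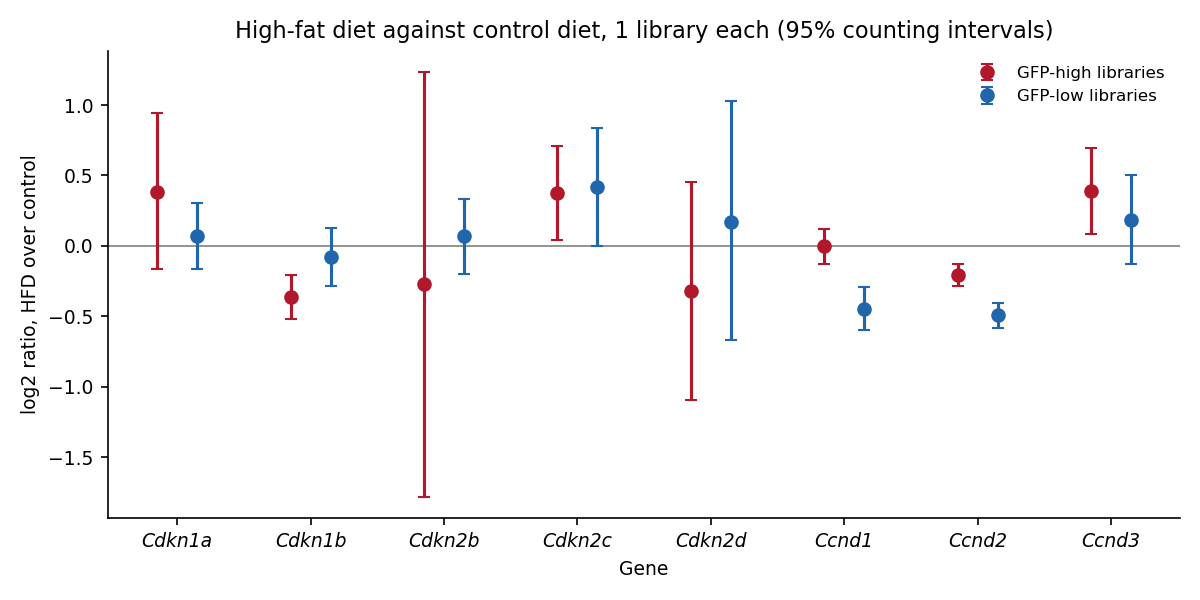
Log2 ratio of HFD over control within GFP-high and within GFP-low libraries for the 8 tested genes, 1 library against 1, with 95% counting intervals. In GFP-low libraries Ccnd1 and Ccnd2 lie below 0 with their whole interval, and in GFP-high libraries Ccnd1 lies at 0; the wide bars of Cdkn2b and Cdkn2d rest on 31 counts or fewer per GFP-high library.

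The difference of the diet log2 ratios, GFP-high minus GFP-low, was 0.44 for Ccnd1 (95% counting interval 0.25 to 0.64) and 0.29 for Ccnd2 (0.17 to 0.40). Differences at least as large were common, found in 21.3% of tested genes for the size of Ccnd1 and 37.6% for that of Ccnd2. The median size over all tested genes was 0.21. With 1 library per group this difference has no test.

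Other cell types moved with diet as well. The enterocyte markers summed above were called higher under HFD for 6 of 14 tested genes and lower for 0, and the Paneth cell markers were called lower for 6 of 8. The summed goblet level was 17928 CPM under HFD against 40840 CPM under control in GFP-low cells, and 3222 against 3633 CPM in GFP-high cells. By diet 0 of 9 goblet markers were called, by either tool. The additive test cannot judge such a shift, because a difference mainly in 1 fraction enters its spread. The part of these shifts in the D cyclin values was not tested.

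Around the 10 genes, the lists below are to be read against the 22.0% of all tested genes called higher and 25.6% called lower in GFP-high cells. Of 17 Cdks, cyclins and their direct regulators, 8 rose and 0 fell in GFP-high cells (DESeq2 4 and 0, median log2 0.42). Cdk6, a partner of the D cyclins, had 98.7 and 103 CPM in HFD and control GFP-high cells, against 30.1 and 27.0 CPM in HFD and control GFP-low cells (3.52-fold, log2 1.81 ± 0.13 SE, edgeR adjusted p = 1.14e-08). Wee1, the kinase that holds Cdk1 inactive before mitosis, was 3.14-fold higher in GFP-high cells (edgeR adjusted p = 2.31e-07). The smallest ratios called were those of Cdk1 and Ccna2, at 1.34-fold and 1.28-fold. The list had 0 diet calls by both tools.

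Of 19 genes of the Rb, E2F and DREAM complexes, which act below the D cyclins, 10 rose and 2 fell in GFP-high cells (DESeq2 4 and 2, median log2 0.30), with 0 diet calls. E2f1, an activator of S phase genes, was 2.57-fold and E2f6, a repressor, 1.78-fold higher. The 2 that fell were Rb1, the retinoblastoma gene itself, and E2f2. Rb1 had 41.6 and 30.6 CPM in HFD and control GFP-high cells, against 90.2 and 85.0 CPM in HFD and control GFP-low cells (2.43-fold lower in GFP-high, edgeR adjusted p = 6.55e-07), and E2f2 was 2.32-fold lower (edgeR adjusted p = 4.39e-07).

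S phase genes rose in GFP-high cells for 15 of 16 (DESeq2 10, median log2 0.91), led by Cdt1 and Cdc6, the licensing factors of DNA replication, at 2.24-fold and 2.10-fold. Slbp and Tyms had the smallest ratios called, at 1.47-fold and 1.34-fold. G2/M genes rose for 14 of 20 (DESeq2 7, median log2 0.42), led by Cenpf, a kinetochore protein, and Top2a, a topoisomerase, at 1.69-fold and 1.66-fold. Ube2c and Plk1 had the smallest ratios called, at 1.29-fold and 1.25-fold. No gene of either list fell, and none was called by diet, by either tool. The median diet log2 ratio of the S phase list was 0.23, beside 0.01 over all tested genes.

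Of 15 genes that break down these inhibitors and cyclins, 3 rose in GFP-high cells and 0 fell (DESeq2 1 and 0, median log2 0.08), a share near the 22.0% called higher over all tested genes, with 0 diet calls. Dtl, the substrate receptor that directs p21 to destruction in S phase, had 83.0 and 67.0 CPM in HFD and control GFP-high cells, against 30.1 and 28.1 CPM in HFD and control GFP-low cells (2.57-fold higher, edgeR adjusted p = 4.21e-07). Skp2, the receptor that targets p27, was 1.42-fold higher in GFP-high cells (edgeR adjusted p = 0.00946). Cul4b was 1.29-fold higher (edgeR adjusted p = 0.0278).

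Among 18 tested upstream regulators, 10 rose and 2 fell in GFP-high cells (DESeq2 7 and 1, median log2 0.39). Myc, which with Miz1 represses Cdkn2b and Cdkn1a in other cells, had 188 and 305 CPM in HFD and control GFP-high cells, against 71.0 and 122 CPM in HFD and control GFP-low cells (2.57-fold higher, edgeR adjusted p = 2e-08), and Hes1, a Notch target, was 1.94-fold higher. Klf4, a differentiation factor known to activate Cdkn1a, was 3.40-fold lower in GFP-high cells (edgeR adjusted p = 1.07e-07), and Klf5 was 1.23-fold lower (edgeR adjusted p = 0.0238). The p53 gene Trp53 and the TGF-beta pathway genes were chosen for naming after their values were seen. Trp53 was 1.70-fold, Tgfbr1 1.86-fold, Tgfbr2 1.74-fold and Smad4 1.34-fold higher in GFP-high cells, all called by edgeR. Smad2 and Smad3 were not called. Tgfb1 was not tested, with 2 and 5 counts in HFD and control GFP-high cells, against 2 and 14 in HFD and control GFP-low cells. Zbtb17, which encodes Miz1, was also named after its values were seen. It was 1.13-fold higher in GFP-high cells and not called (edgeR adjusted p = 0.328). The part of any of these regulators in the levels of Cdkn1a and Cdkn2b was not tested. By diet 3 of the 18 fell and 0 rose (DESeq2 2 and 0). Klf4 had 40.4 and 115 CPM in HFD GFP-high and GFP-low cells, against 58.6 and 235 CPM in control GFP-high and GFP-low cells (1.76-fold lower under HFD, edgeR adjusted p = 0.00111). Myc was 1.67-fold lower (edgeR adjusted p = 0.000157). The other one, Mdm2, the ubiquitin ligase of p53, was chosen for naming after its values were seen. It was 1.47-fold lower (edgeR adjusted p = 0.0240).

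**Figure D5:**
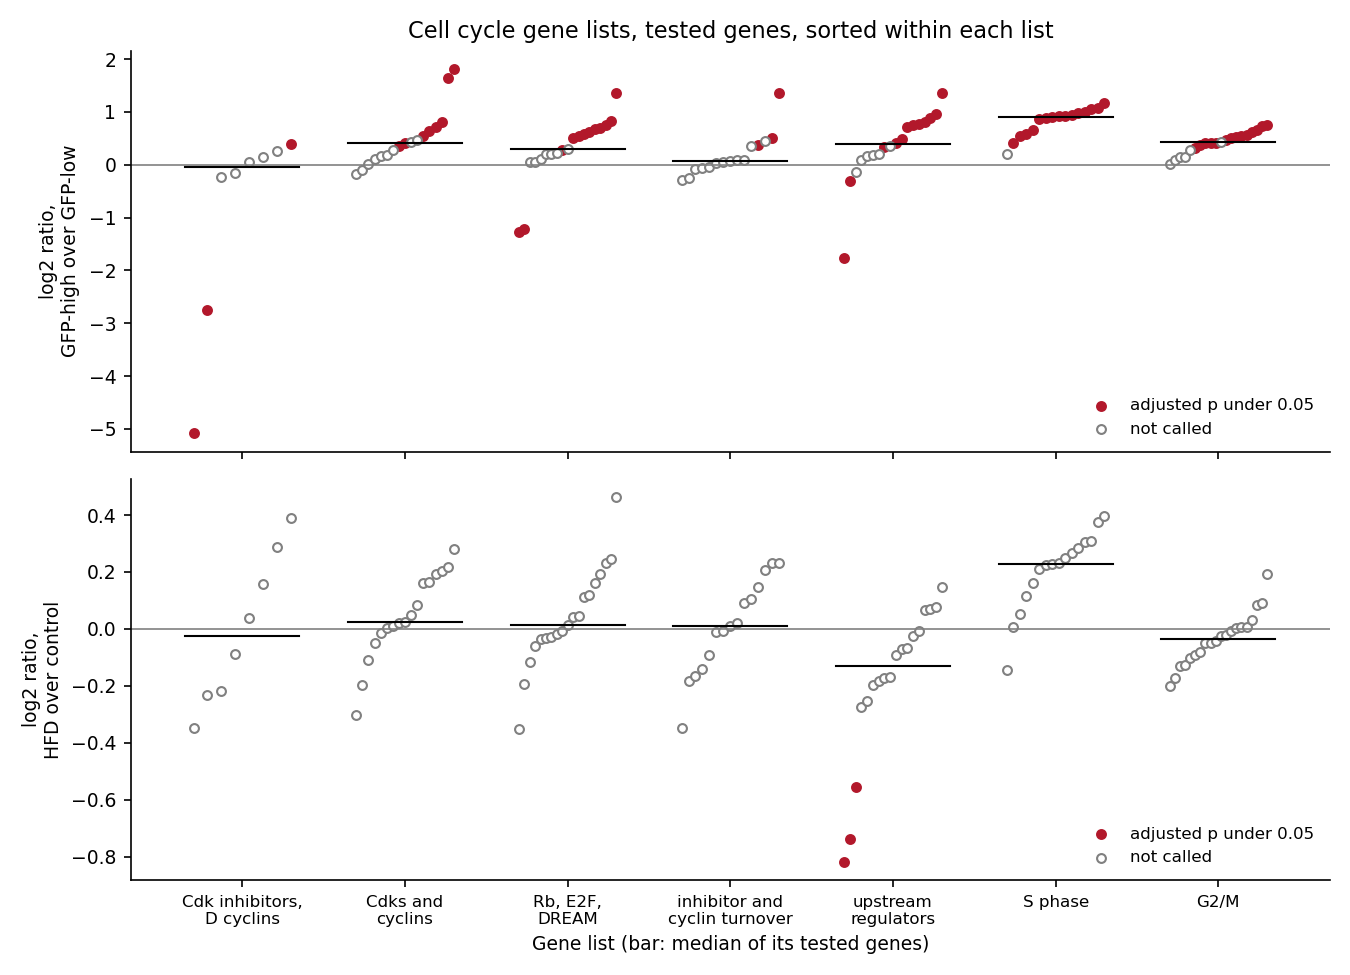
Log2 ratios of the tested genes of 7 lists, sorted within each list, for GFP-high over GFP-low (upper panel) and HFD over control (lower panel); filled points have an adjusted p under 0.05 and bars are list medians. Cdkn2b and Cdkn1a are the lowest points of the upper panel, and the only filled points of the lower panel are 3 upstream regulators.

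Some reads could belong to neighbours, because the sources used here do not give the strand setting of the counting. Ccnd1 shares 1100 exon bases with LTO1 on the opposite strand, which had 65 to 101 counts per library, and Ccnd3 shares 361 with Bysl, which had 126 to 168. Also on the opposite strand, Cdkn1a shares 273 exon bases with AC167363.2, Cdkn1c 625 with Gm44732 and Ccnd2 372 with Gm43126. None of these neighbours was among the counted genes. Ccnd2 shares a further 368 with 9330179D12Rik, which had 0 to 2 counts per library. Cdkn2b, Cdkn1b, Cdkn2c and Cdkn2d overlap no annotated gene in their exons.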

How the data were processed

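Poly(A) RNA of sorted cells was sequenced from 4 libraries made with a strand-specific dUTP kit, per the labels' protocols. The authors deposited raw read counts for each gene. Per the submitters' processing notes, they used cutadapt, TopHat version 1.4.1, HTSeq and the builds GRCm38 and mm10. The sources used here do not give the annotation release or the strand setting.

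Of 38124 gene IDs, 36345 matched a symbol. Library sizes were scaled with TMM in edgeR version 4.0.16 (R version 4.3.3). Genes that reached 20 counts in 2 or more libraries entered edgeR's two-sided quasi-likelihood F-test, in 1 additive model of diet and fraction over all 4 libraries, with Benjamini-Hochberg adjustment over 10694 genes and a threshold of 0.05. The diet-by-fraction term is its 1 residual degree of freedom, and the biological coefficient of variation was 0.0833. The spread behind the p-values is that between these libraries and may be technical, and if the pools of a diet shared mice, the diet p-values are too small. DESeq2 version 1.42.0 was an alternative.

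Ratios of 1 library to 1 have exact 95% intervals for 2 Poisson counts. Those set against the 2-fold size, and differences of log2 ratios, had 0.5 CPM added to each level, which understates changes of low genes. Levels per kb used merged exons of GENCODE M21 (GRCm38), with the longest transcript as an alternative. The 10 genes, the gene lists and the tests were chosen with earlier results of these data known. By the naming rule, all 10 genes, the 3 nearest patterns of each gene called at 2-fold or more, and the 2 highest and 2 lowest called genes of each list are named.

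Marker lists were also used, and for them rose and fell mean called by edgeR. Of 9 tested enteroendocrine markers, 6 fell in GFP-high cells and 2 under HFD, and of 2 tested tuft markers 1 fell in GFP-high cells. Paneth markers fell in GFP-high cells for 7 of 8. Of stem cell markers, 1 rose and 2 fell under HFD.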

Additional observations from a re-analysis of the deposited data

Results flagged for a closer look

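Opposite signs in different groups drew attention to 4 genes. None of these differences was tested, since each group is 1 library, and each covers counting error only. The difference of the diet log2 ratios, GFP-high minus GFP-low, was -0.27 for Cdkn2b and -0.45 for Cdkn2d, where HFD was below control in GFP-high cells and above it in GFP-low cells. Their counting intervals, -1.63 to 1.09 and -1.52 to 0.62, include 0.

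The difference of the fraction log2 ratios, HFD minus control, was 0.44 for Ccnd1, 0.29 for Ccnd2 and -0.45 for Cdkn2d. Ccnd1 and Ccnd2, the principal D cyclins by level, were higher in GFP-high than in GFP-low cells under HFD, by 1.29-fold and 1.15-fold, and lower in GFP-high cells under control, by 1.05-fold and 1.06-fold. The control ratio of GFP-high to GFP-low was 0.953 for Ccnd1 (95% counting interval 0.866 to 1.05, which includes 1) and 0.944 for Ccnd2 (0.892 to 0.998), and with scaling by library totals both were above 1. For both, HFD GFP-low cells had the lowest level of the 4 libraries.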

How the results depend on the processing

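Cdkn1a and Cdkn2b were called for fraction in every fit over 4 libraries. Over all genes, the 5090 fraction calls became 2390 with DESeq2, 2948 without diet in the model and 909 to 1877 without 1 library, in fits without the other factor (chosen after seeing the data), where a fraction with 1 library left is assumed to vary like the other. The 3 calls among the 10 genes became 1 to 2 without 1 library: Cdkn1b lost its call each time, and Cdkn2b, with 9 counts per GFP-high library, fell below the filter when 1 GFP-low library was left out. Scaling by library totals gave 5, adding Cdkn2c (log2 0.46, edgeR adjusted p = 0.0257) and Ccnd1 (log2 0.34, edgeR adjusted p = 0.0306), and it moved the median fraction log2 ratio of all genes to 0.19. It turned Cdkn2d to 0.0454 and, within control, Ccnd2 to 0.0867 and Ccnd1 to 0.10.

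The 691 diet calls became 1158 without a filter, 189 with DESeq2, 0 without fraction in the model (edgeR, 149 at an unadjusted p under 0.05) and 0 without any 1 library (83 to 151 unadjusted). The 0 diet calls among the 10 genes became 1, Ccnd2, without a filter and 1 at 100 counts. Cdkn2b turned to -0.0168 for diet with DESeq2. The causes were not tested. Per kb, Ccnd3 averaged 3.83 CPM by merged exons and 8.71 CPM by the longest transcript. No paired analysis was possible because the labels give no replicate numbers, but the additive fit compares the fractions within each diet. Additive fits on 3 libraries leave no residual degree of freedom and gave values only. Low counts limit Cdkn1c, Cdkn2a, Cdkn2d and, in GFP-high cells, Cdkn2b.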
